A study of Mus musculus with 8 samples.

Results

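The 4 wild-type (WT) libraries of mouse hippocampus in this series were described here on their own, without the other 4 libraries of its 8, which come from mice of the T29-1 Cre line and were not used. The WT mice were C57BL/6J animals aged 9 weeks. Poly(A) RNA was selected from 500 ng of total RNA and read in pairs of 150 bases. The labels number the WT libraries from 1 to 4 and do not say whether each came from a separate animal, from 1 or both hippocampi, or from which sex, so the spread given below is the spread between these libraries and may be partly technical. They held 26885740, 24741759, 30882631 and 23694841 counts for replicates 1 to 4. A level is given as counts per 1000000 (CPM), the count of a gene divided by the total of its library, or, where genes are set against each other, as transcripts per 1000000 (TPM), which also divides by gene length. Of 46078 rows in the table, 14157 reached 1 CPM on average, equal to 23.7 to 30.9 counts depending on the library. These rows are the genes described here. Another 21204 rows had no count in any of the 4 libraries, which allows a level of up to 0.0282 CPM (3 counts over the 4 libraries, counting error only).

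The hippocampus is a folded sheet of cortex that the brain needs to form new memories of places and events. Excitatory granule cells of the dentate gyrus project to pyramidal cells of CA3, and these project to CA1, while scattered interneurons release GABA onto all of them. Astrocytes clear glutamate from the synapses, oligodendrocytes wrap axons in myelin, microglia are the resident immune cells, and vessels run throughout. RNA of the whole tissue mixes all of these cells, so a low level of a transcript can reflect few cells of a type or little RNA per cell, and these cannot be told apart here.

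WT replicate 4 stood apart from the other WT libraries. Over the 9962 genes that averaged 10 CPM or more, 11.7% to 14.4% of genes differed by more than 1.25-fold between replicate 4 and each other library, against 1.39% to 1.96% between pairs of replicates 1, 2 and 3. Set against the mean of the other 3 libraries, replicate 4 had 740 genes at least 1.25-fold lower and 358 at least 1.25-fold higher. Its difference went with gene length. With the genes divided into 4 groups of equal size by exon length, its median log2 deviation was 0.18 in the shortest group, 0.07 and -0.02 in the middle groups and -0.16 in the longest. The 113 genes that were at least 1.5-fold lower in replicate 4 had a median exon length of 11754 bases, against 5032 bases for all genes at 10 CPM or more. Among replicates 1 to 3 alone, each set against the mean of the other 2, these medians ran from -0.02485 to 0.01847. They rose with length in replicate 3 and fell with length in replicates 1 and 2. No pair of libraries matched within counting noise, since the chi-square per degree of freedom was 2.66 or more in every pair. The part of gene length in the values that rest on replicate 4 was not tested.

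The counts were spread over many genes. The gene with the most counts took 1.08% ± 0.04 of a library (SD, n = 4), the first 10 took 4.24% ± 0.08, the first 100 took 16.9% ± 0.13, and the first 1000 took 49.6% ± 0.24. By the mean of the 4 libraries, 218 genes held 25% of all counts, 1023 held 50%, 5991 held 90% and 11225 held 99%. The 4 libraries lay close together in these measures: 1010, 1036, 1015 and 1018 genes were needed to reach 50% in replicates 1 to 4. The genes between 100 and 1000 CPM, 2223 in number, held 52.6% of counts, and the 85 genes at 1000 CPM or more held 15.5%. At the low end, 4195 genes between 1 and 10 CPM held 1.80%.

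A subunit of the respiratory chain led the list by counts. mt-Co1, a mitochondrially encoded subunit of cytochrome c oxidase, had 10290, 11272, 10926 and 10615 CPM in replicates 1 to 4, a mean of 10776 ± 421. Camk2a, the alpha subunit of the calcium and calmodulin dependent kinase that is abundant at excitatory synapses, came next with 4641, 4699, 4589 and 4325 CPM. mt-Cytb, cytochrome b, followed with 4279, 4396, 4337 and 4314 CPM, and only replicate 4 of Camk2a fell within its range. Ncdn (neurochondrin), Ddn (dendrin, a protein of dendrites), Cpe (the enzyme that trims neuropeptide precursors), Kif5a (a motor of axonal transport), Ppp3ca (the catalytic subunit of calcineurin) and Cplx2 (complexin 2, which acts in vesicle release) were also among the first 25, with means from 2097 CPM for Cplx2 to 3015 CPM for Ncdn. So were Agap2, Map1a (a microtubule-associated protein) and Snap25 (a SNARE protein of the presynaptic terminal), at 1879, 1863 and 1829 CPM.

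The order within this list was only in part resolved. Of the 24 pairs of neighbours, 21 had overlapping ranges over the 4 libraries. The exceptions were mt-Co1 above Camk2a and mt-Cytb above mt-Rnr2, which did not overlap, and mt-Nd2 above mt-Nd4, at 2280 to 2483 against 2059 to 2206 CPM. A total of 22 genes were among the first 25 in every library, and 29 were among them in at least 1. Among the first 100 these numbers were 89 and 110. Some of the leading genes were far steadier than others. Atp1b1, the main beta subunit of the sodium pump, had 1903, 1900, 1900 and 1870 CPM, a coefficient of variation (CV, the SD as a percent of the mean) of 0.83%. Slc1a2, the glutamate transporter of astrocytes, had 2991, 3160, 3043 and 2188 CPM, a CV of 15.6%. The value of replicate 4 lay below the other 3 in both genes, and without it the CV of Slc1a2 was 2.81%.

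**Figure D1:**
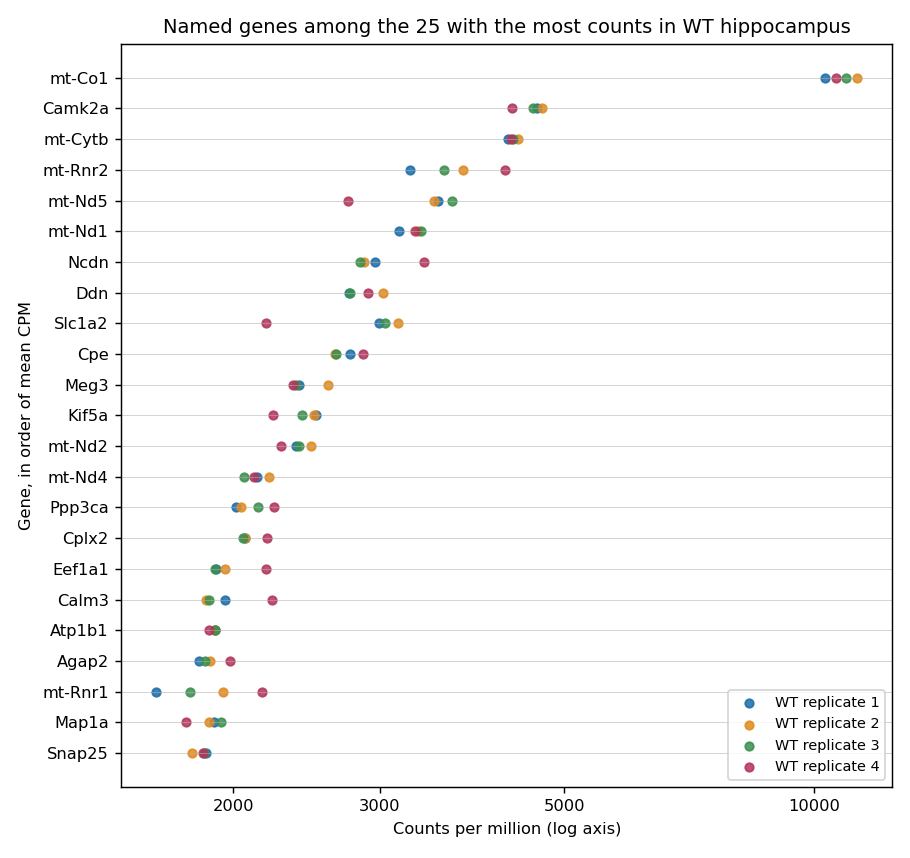
CPM (log axis) of named genes among the 25 with the most counts, 1 point per WT library, in order of the mean. mt-Co1 stands alone at 10290 to 11272 CPM, neighbours below it mostly overlap, and replicate 4 lies low for Slc1a2 and mt-Nd5.

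Dividing by length changed the order. The median exon length of the 25 leading genes was 3710 bases by CPM and 2084 bases by TPM, and 16 genes were in both lists, 8 of them mitochondrially encoded. By TPM, the first 8 places were all taken by mitochondrially encoded genes, from mt-Co1 at 29091 ± 1483 TPM (SD, n = 4) down to mt-Nd4 at 6446 ± 246. Cpe led the nuclear genes at 4366 ± 90 TPM. Nrgn (neurogranin, a calmodulin-binding protein of dendritic spines) followed at 4124, 3905, 3992 and 4609 TPM, with replicate 4 highest, and its range overlapped that of Cpe. The next were Calm2 at 3574, Apoe (the lipid carrier made mainly by astrocytes) at 3496 and Calm3 at 3396 TPM. Camk2a, with 7465 exonic bases, moved from the 2nd place by CPM to the 20th by TPM, at 2551 ± 153. Slc1a2, with 13133 exonic bases, moved from the 10th to the 98th, and Meg3, with 18089, from the 13th to the 207th. Short genes that came in by this measure included Sepw1 (selenoprotein W, 2763 TPM), Cst3 (cystatin C, 2371 TPM) and Psap (prosaposin, 2291 TPM). Ranges of neighbours overlapped in 19 of 24 pairs.

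The mitochondrial genome encodes 13 proteins of oxidative phosphorylation, together with the ribosomal and transfer RNAs that translate them, and its protein genes are transcribed together in long precursors. In these libraries, mitochondrially encoded genes held 3.07%, 3.30%, 3.22% and 3.19% of counts in replicates 1 to 4, a mean of 3.20% ± 0.09, and 10.2% of the per-length total. Their 13 protein genes fell into widely separated groups. The genes mt-Co1, mt-Cytb, mt-Nd5, mt-Nd1, mt-Nd2 and mt-Nd4, 6 in all, each had a mean of 2130 CPM or more. mt-Nd3, mt-Atp6, mt-Co3, mt-Co2 and mt-Nd4l had 14.1, 7.87, 7.06, 6.66 and 2.18 CPM, and their sum was 37.9 CPM. mt-Nd6, the only protein gene on the other strand, had 47.4 ± 4.4 CPM, and mt-Atp8 had 0.32 ± 0.11 CPM.

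The same 5 low genes were those with annotated nuclear copies over nearly their whole length. Of all windows of 150 bases (the read length) in their transcripts, 97.0% to 99.8% also occur in the transcript of another annotated gene. The copies lie side by side on the minus strand of chromosome 1, between 24611535 and 24616197 (GRCm38), and are annotated as unprocessed pseudogenes. Gm28437 is identical to mt-Co3 over 783 bases, Gm28661 to mt-Co2 over 681, Gm10925 to mt-Atp6 over 678 and Gm28439 to mt-Nd4 over 876. Gm29216 matches mt-Co1 at 486 of 492 bases. The windows shown are the first 100 bases of mt-Co3 and of its copy, and the stretch where mt-Co1 and its copy differ, with differing bases in capitals (GENCODE M21 transcripts, 5′ to 3′).
mt-Co3, chrM:8607-8706, plus strand: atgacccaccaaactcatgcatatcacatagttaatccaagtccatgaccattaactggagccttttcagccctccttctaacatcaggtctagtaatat
Gm28437, chr1:24613872-24613971, minus strand: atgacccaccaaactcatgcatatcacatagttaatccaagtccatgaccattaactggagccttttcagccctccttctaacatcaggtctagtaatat
mt-Co1, chrM:6381-6480, plus strand: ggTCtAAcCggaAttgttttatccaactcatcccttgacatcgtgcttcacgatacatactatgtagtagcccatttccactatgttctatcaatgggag
Gm29216, chr1:24616098-24616197, minus strand: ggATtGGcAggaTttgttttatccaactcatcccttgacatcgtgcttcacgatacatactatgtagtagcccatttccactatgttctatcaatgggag
No base in the pair of mt-Co3 windows tells the mitochondrial gene from its copy. In the mt-Co1 pair the 6 substitutions, counted from 1 at the 5′ end of mt-Co1 with its base first, are T1056A, C1057T, A1059G, A1060G, C1062A and A1066T, and the remaining 479 aligned bases downstream are identical.

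Counts went with this sharing for most of the genes. mt-Cytb, mt-Nd1, mt-Nd2 and mt-Nd5 share no window with another gene, mt-Co1 shares 23.6% and mt-Nd4 59.2%. The copies themselves had few counts, with Gm10925 at 20.4, Gm28437 at 13.8, Gm28661 at 12.3, Gm28439 at 8.89 and Gm29216 at 6.97 CPM. mt-Nd3 and mt-Nd4l share windows with Gm28438 and Gm10222 in the same stretch of chromosome 1. mt-Atp8, at 204 bases, and mt-Nd6 were low and share no window with an annotated transcript of another gene. The last 43 bases of mt-Atp8 are identical to a stretch of Gm10925, and nuclear sequence outside annotated transcripts was not searched. The rule applied to reads that match several places is not given in the sources used here, so the part of shared sequence in these low counts was not tested, and the shares of mitochondrially encoded genes above are counts under that unknown rule. Near-identical nuclear genes were counted under the same unknown rule. Of 486 protein-coding genes with over 90% of windows shared, 16 (3.29%) reached 1 CPM. Of the 14875 with none shared, 61.8% did. In the groups between, 70.2% did with above 0 to 10% shared, 59.4% with above 10 to 50% and 19.5% with above 50 to 90%. The part of shared sequence in these shares was not tested either.

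**Figure D2:**
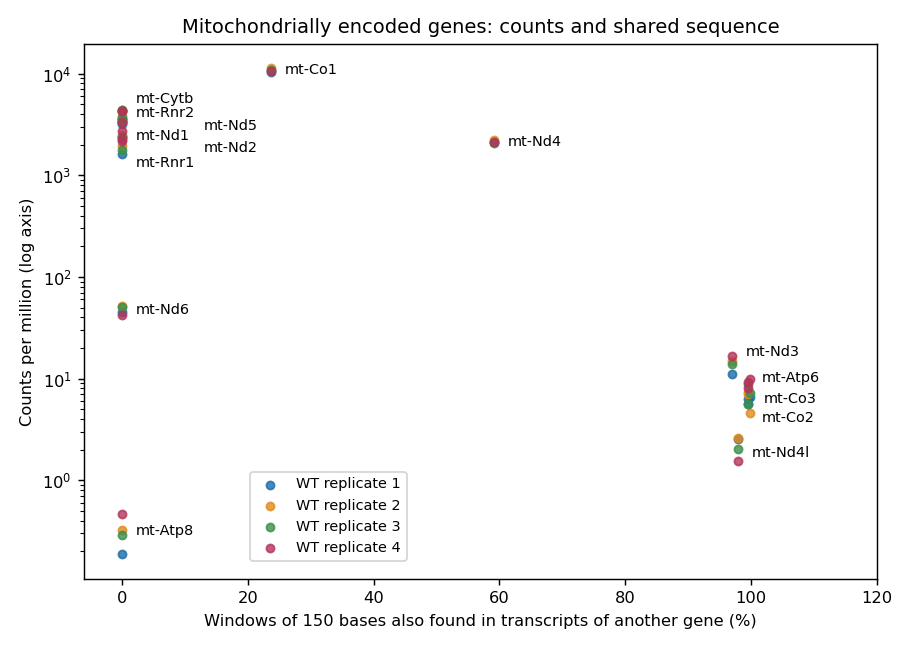
CPM (log axis) of the mitochondrially encoded protein and ribosomal RNA genes against the percent of their 150-base windows that other genes share, 1 point per WT library. The 5 genes above 90% lie at 1.56 to 16.7 CPM, while mt-Co1 and mt-Nd4, which share a part of their windows, lie above 2000 CPM.

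The 2 mitochondrial ribosomal RNAs were also well represented, although the libraries were selected for poly(A). mt-Rnr2 had 3261, 3783, 3585 and 4241 CPM and mt-Rnr1 had 1616, 1945, 1773 and 2165 CPM. Replicate 4 was highest and replicate 1 lowest in both. mt-Nd5 went the other way, with 2746 CPM in replicate 4 against 3487 to 3669 in the others.

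Genes of the synapse were among the classes with the most counts. The 32 synaptic vesicle and release genes held 2.21% ± 0.06 of counts (SD, n = 4), and all 32 were above 1 CPM. Of all 22085 protein-coding rows, 13183 reached 1 CPM, and the list was chosen with earlier results known. Cplx2 at 1773, Slc17a7 (the vesicular glutamate transporter 1) at 1340 and Dnm1 (dynamin 1, which pinches off vesicles) at 1318 TPM led the 32 genes. Snap25 at 1123 and Syp (synaptophysin) at 1072 TPM followed. Postsynaptic receptors and scaffolds held 1.98%, 1.99%, 1.99% and 1.88% in replicates 1 to 4, with replicate 4 below the rest, and Camk2a alone made up 23.2% of that. By length, Nrgn, Camk2a, Cnih2 (an AMPA receptor auxiliary subunit, 1566 TPM), Gria1 (an AMPA receptor subunit, 841 TPM) and Camk2b (685 TPM) were the highest of them.

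Several classes of housekeeping genes were highest in replicate 4. Cytosolic ribosomal protein genes, of which 77 of 78 rows were above 1 CPM, held 0.957%, 0.996%, 0.959% and 1.20% of counts, and their mean moved from 1.03% to 0.970% without replicate 4. Nuclear genes of oxidative phosphorylation held 0.840%, 0.835%, 0.824% and 0.972%, or 0.833% without replicate 4. Replicate 4 lay above the range of the other 3 in both. Glycolysis enzymes were also highest there, at 1.05%, 0.983%, 0.994% and 1.16%, with a mean of 1.05%, or 1.01% without replicate 4, and were led by Aldoa at 2586 and Gapdh at 1497 TPM. Proteasome subunits and neuropeptides were at 0.304% and 0.296% in replicate 4, against 0.257% to 0.265% and 0.255% to 0.258% in the others.

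Other classes were lowest in replicate 4. Solute carriers held 2.03% ± 0.06 of counts, potassium channels 0.640% ± 0.015 and voltage-gated sodium and calcium channels 0.505% ± 0.026, each with its lowest value in replicate 4. Without that library their means were 2.06%, 0.647% and 0.518%. Kcnab2 (a potassium channel beta subunit) and Cacna1e (a calcium channel) held the most counts among the channels. Zinc finger genes of the Zfp series held 0.768% ± 0.025, likewise lowest there. Chaperones held 0.836% ± 0.027, highest in replicate 4, and were led by Hsp90ab1 at 2379 and Hspa8 at 1397 TPM. Hemoglobins held 0.0059% of counts in replicate 1 and 0.0033% to 0.0040% in the others.

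**Figure D3:**
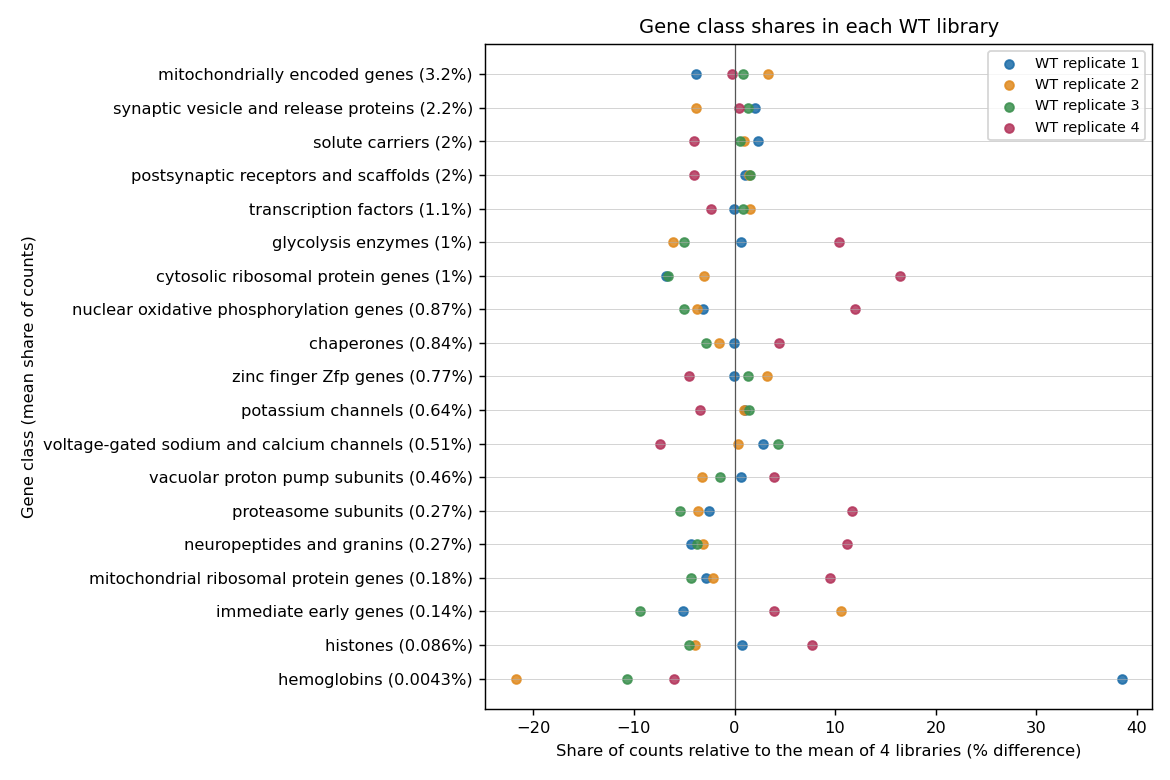
Share of counts of 19 gene classes in each WT library, as the percent difference from the mean of the 4 libraries; the mean share stands beside each name. Replicate 4 lies above the others for ribosomal protein, oxidative phosphorylation, proteasome and neuropeptide genes, and replicate 1 for hemoglobins.

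Receptors of the nose and tongue marked the low end. Of 1257 olfactory receptor rows, 1 reached a mean of 1 CPM, Olfr287 at 3.36 CPM. Of 541 vomeronasal receptor rows 2 did, and of 35 bitter taste receptor rows none did.

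Protein-coding genes made up 13183 of the described genes and 97.6% ± 0.06 of counts. Long noncoding RNAs were 575 genes with 0.971% ± 0.036 of counts, and pseudogenes were 122 genes with 0.105%. Meg3, a maternally expressed imprinted RNA, alone had 2401, 2596, 2376 and 2356 CPM. Its neighbour Rian, from the same imprinted cluster on chromosome 12, had 511 ± 20 CPM. Both were highest in replicate 2, and their other libraries lay within 2356 to 2401 and 497 to 509 CPM. Malat1, a nuclear RNA, had 543 ± 35, Miat 491 ± 35, 1700020I14Rik 482 ± 71, 2900097C17Rik 405 ± 61 and Peg13, an imprinted RNA, 263 ± 7 CPM. 1700020I14Rik and 2900097C17Rik were lowest in replicate 4, at 376 and 317 CPM, outside the ranges of the other libraries. Gm23935, annotated as a miRNA of 57 bases, had 362 ± 35 CPM and has no per-length level here.

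Markers of the hippocampal fields were detected throughout. All 6 markers of CA1, 6 of CA2, 5 of CA3 and 10 of dentate granule cells were above 1 CPM. Over all 22085 protein-coding rows, 13183 reached that level. In CA1, Mpped1 had 250, 257, 251 and 248 TPM, Fibcd1 209 ± 6 and Wfs1 159 ± 9 TPM. In the dentate gyrus, C1ql3 and C1ql2, secreted synaptic organizers, had 308 ± 9 and 233 ± 17 TPM, and Prox1, the transcription factor of granule cells, 58.8 ± 8.2 TPM. Rgs14 led the CA2 list at 112 ± 6 TPM and Cpne4 the CA3 list at 84.4 ± 7.3 TPM. The summed CA1 markers ran from 766 to 800 TPM (CV 1.91%), those of CA2 from 196 to 209 TPM (CV 2.99%) and those of CA3 from 207 to 236 TPM (CV 6.19%). Markers of neighbouring regions were detected as well: all 7 of neocortex and subiculum were above 1 CPM and summed to 170.5 ± 7.4 TPM, led by Fezf2, and so were all 6 of striatum. Passing 1 CPM therefore does not single out the hippocampus. Sums of lists of different genes do not measure the numbers of cells of each type.

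Markers of excitatory principal neurons summed to 10709 ± 267 TPM and those of GABAergic interneurons to 2013 ± 50 TPM (SD, n = 4). Sst, the peptide somatostatin, was the highest of the interneuron markers with 934, 990, 948 and 1070 TPM. Npy (neuropeptide Y), Gad1 (the GABA synthesizing enzyme) and Slc32a1 (the vesicular GABA transporter) had 189, 175 and 142 TPM. Immature neuron markers were low, with Sox11 at 12.7 and Dcx (doublecortin) at 7.17 TPM, and Eomes, a factor of intermediate progenitors, was under 1 CPM.

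Summed markers of astrocytes, oligodendrocytes and vessels had CVs of 7.37%, 9.92% and 7.52% over the 4 libraries, against 2.50% for excitatory neurons and 2.47% for interneurons. The astrocyte and oligodendrocyte CVs each rested on 1 library. Vessel markers summed to 408.5, 399.2, 373.1 and 344.7 TPM in replicates 1 to 4, with no single library set apart. Without replicate 4 the CV of the astrocyte sum was 2.66% and that of the vessel sum 4.67%, and without replicate 1 that of the oligodendrocyte sum was 1.86%. Leaving out each library in turn gave 1.87% to 3.003% for excitatory neurons. Astrocyte markers summed to 3560, 3611, 3428 and 3054 TPM. The low sum in replicate 4 went with Slc1a2, at 668 TPM there against 962 to 1011 in the others. Gfap (a filament protein of astrocytes) was also lowest in replicate 4, at 380 against 409 to 445 TPM. So were Atp1b2, at 380.5 against 417.5 to 434 TPM, and Slc1a3 (another glutamate transporter), at 252 against 276 to 299 TPM. By CPM, Slc1a2, Gfap, Atp1b2 and Slc1a3 were lowest there too. Aldoc, an aldolase of astrocytes, had 942 TPM in replicate 4 and 871 to 948 in the others. By CPM, Aldoc was highest in replicate 4, at 766.6, with 670.2 as its lowest value. A gene level in CPM can read low in replicate 4 by TPM. Ank had 211.0 to 211.5 CPM in all libraries but 247.5, 245.7, 248 and 234.5 TPM, which bears on marker sums compared between libraries. Oligodendrocyte markers summed to 3511 TPM in replicate 1 and 2868 to 2972 in the others, and Mobp, a myelin protein, had 426, 319, 293 and 294 TPM. Replicate 1 was also the highest for Mbp (myelin basic protein), Cnp and Cldn11. Microglia markers such as C1qa and C1qb (120 and 116 TPM) and Csf1r (61.9 TPM) summed to 808 ± 21 TPM. Endothelial and mural markers, led by Vtn and Cldn5, summed to 381 ± 29 TPM.

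Markers of ventricle lining and blood were seen at levels that differed between libraries. Ependymal markers summed to 46.7 TPM in replicate 1 and 15.1 to 18.7 TPM in the others. Only 3 of 8 passed 1 CPM, so part of these sums rests on few counts. Foxj1, which drives formation of motile cilia, had 15.2, 7.97, 7.33 and 8.65 TPM. Blood markers were also highest in replicate 1, at 327 TPM against 182 to 210, with Hbb-bs (a beta globin) at 163 TPM there and 86.7 to 106 TPM in the others. Choroid plexus markers were highest in replicate 3, at 28.4 TPM against 15.3 to 16.4, and only 3 of 9 passed 1 CPM. Most of that excess was Ttr (transthyretin), at 15.5 TPM in replicate 3 and 3.84 to 5.16 TPM in the others. Thalamic and habenular markers summed to 37.9 ± 2.5 TPM and striatal ones to 87.3 ± 7.4 TPM, of which Ppp1r1b was 63.2 TPM.

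Cerebellar markers were near background, as 0 of 5 reached 1 CPM and they summed to 1.45 TPM. Among markers of tissues outside the brain, 0 of 10 reached 1 CPM, and Ins1, Ins2, Umod and Prm1 had no count. Alb, the serum albumin of the liver, had 0.046 CPM.

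**Figure D4:**
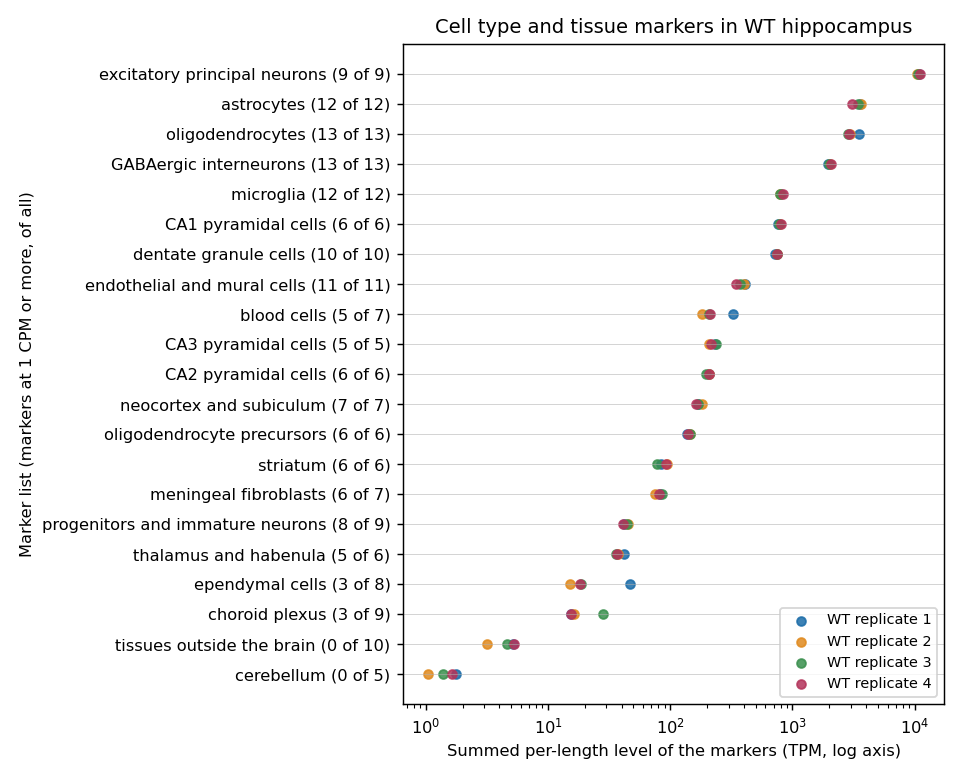
Summed per-length level (TPM, log axis) of each marker list, 1 point per WT library, with the number of markers at 1 CPM or more of all in the list. Replicate 1 lies high for oligodendrocyte, ependymal and blood markers, and cerebellar markers stay below 2 TPM.

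Within gene families, 1 or a few paralogs held most of the level. Atp1b1 held 82.9% of the summed TPM of the sodium pump beta subunits. Hk1 had 95.9% of the hexokinases and Atp2a2 99.04% of the calcium pumps of the endoplasmic reticulum. Aldoa held 73.5% of aldolases and Ckb, the brain form, 83.4% of creatine kinases, whose muscle form Ckm had 0.012 TPM. Kif5a held 66.2% of the kinesin-1 heavy chains. Ldhb, the form of lactate dehydrogenase common in heart, had 71.5% and Ldha 28.6%. In each of these families the leading member had the highest TPM in every library.

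Other families were shared more evenly. Calm2 and Calm3 encode the same protein, calmodulin, and had 3574 ± 160 and 3396 ± 210 TPM. These lay within each other's spread, but Calm2 was the higher in every library. Eef1a1 and Eef1a2, elongation factors of translation, had 58.5% and 41.5% of their sum. Neuron-specific Eno2 had 54.9% and Eno1 44.0% of the enolases. Among the 14-3-3 genes, Ywhae, Ywhah, Ywhag and Ywhaz lay between 1032 and 1134 TPM, while Sfn was at 3.94 TPM. Rtn1 and Rtn3 had 895 ± 40 and 870 ± 41 TPM, within each other's spread. Aplp1 held 68.4% of the amyloid precursor family by TPM and App 19.2%, although App held 47.1% of the counts of the family. Tuba1a led the alpha tubulins at 1485 ± 103 TPM, but its transcripts share over 50% of their windows with other genes, so its split from Tuba1b at 723 TPM is uncertain.

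All 87 transcription factors on the list were above 1 CPM, but the list was drawn up with earlier results of these data known. Of all 22085 protein-coding rows, 13183 reached 1 CPM. Thra, a thyroid hormone receptor, was highest per length at 993 ± 46 TPM, followed by Jund at 549 ± 45, Zbtb18 at 371 ± 22, Neurod6 at 341 ± 21 and Neurod2 at 303 ± 11 TPM. Zbtb18, Neurod6 and Neurod2 act in the differentiation of excitatory neurons. Among neuropeptides and granins, Pcsk1n had 1025 ± 112, Sst 986 ± 61, Chgb (chromogranin B) 938 ± 61, Cck (cholecystokinin) 809 ± 51 and Vgf 424 ± 24 TPM. Peptides of the hypothalamus were at the low end, with Gal, Avp, Trh, Pmch, Oxt and Hcrt all under 1 CPM.

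Immediate early genes, which neurons switch on within minutes of activity, held 0.137%, 0.160%, 0.131% and 0.150% of counts in replicates 1 to 4. All on the list were above 1 CPM, against 13183 of all 22085 protein-coding rows. Arc, whose protein acts at active synapses, had 248, 346, 224 and 309 TPM in replicates 1 to 4. Egr1, a zinc finger factor, had 161, 199, 140 and 163 TPM. Junb had 179, 203, 174 and 208 TPM. For these 3 genes replicate 3 was the lowest, while replicate 2 was the highest for Arc and Egr1 and replicate 4 for Junb. The share of the class was also lowest in replicate 3, as was a further leading member, but the low was not common to the whole list. Another leading member was lowest in replicate 1, at 170.5 TPM, and highest in replicate 4, at 197.2 TPM.

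The spread of a gene between libraries depended on its abundance and on replicate 4. The median CV over the 14157 genes was 8.28%, and without replicate 4 it was 5.16%. Counting error alone, computed from the counts of each gene, has a median of 3.89%. From 1 to 10 CPM the medians were 13.8% with all libraries, 11.4% without replicate 4 and 10.2% from counting. From 100 to 1000 CPM they were 5.78%, 2.81% and 1.46%, and at 1000 CPM or more 4.86%, 2.77% and 0.51%. The biological coefficient of variation of edgeR, which takes counting error out, was 8.35% over all 4 libraries, 4.52% without replicate 4 and 9.09% to 9.57% without each of the others. Of the 9962 genes at 10 CPM or more, 3063 had a CV under 5% over all libraries and 6279 without replicate 4.

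**Figure D5:**
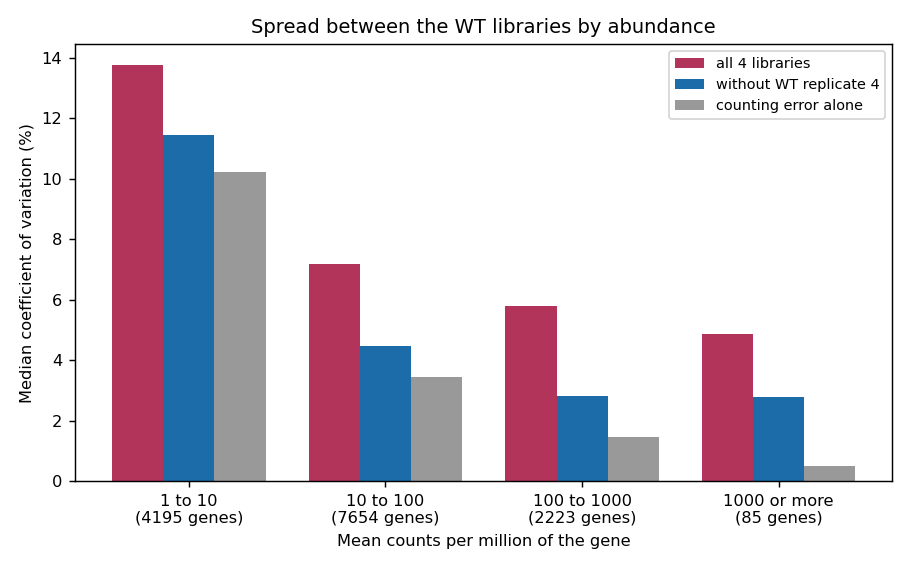
Median coefficient of variation (%) of genes by mean CPM, over the 4 WT libraries, over the 3 without replicate 4, and as counting error alone gives it. At 1000 CPM or more it is 4.86%, 2.77% and 0.51%.

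The genes with the highest spread at 10 CPM or more were mostly those that replicate 4 read low. It was the lowest library in 16 of the 20 and the highest in 1. In the abundance groups from 10 CPM up, it was the lowest for 29.4% to 41.7% of genes and the highest for 42.2% to 45.9%. The CV that ranked these 20 genes includes replicate 4, so its place among them is not independent of the ranking. Eps8l1, a relative of an actin regulating adaptor, had the highest CV at 62.9%, with 19.4, 3.27, 8.03 and 13.8 CPM, and no library stood alone. Dgkh, a diacylglycerol kinase, had 50.2, 50.7, 47.8 and 17.8 CPM, and Slc8a1, a sodium and calcium exchanger, 67.4, 60.7, 64.2 and 27.3 CPM. Gucy1a2, Xkr4, Fzd3 (a Wnt receptor), Klf12, Lcor, Dok6, Lnpep, Igsf9b, Zfp871, Stxbp5l, Slc9a7, Palm2, Cntnap5c and Gm38020 had replicate 4 lowest in the same way, with CVs of 32.3% to 37.5%, or 2.04% to 16.1% without replicate 4. Ptgds, a prostaglandin D synthase and carrier made by meninges, choroid plexus and oligodendrocytes, went the other way, with 121, 142, 156 and 266 CPM. Mid1 and Erdr1 were highest in replicate 3, at 15.96 and 34.5 CPM.

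Without replicate 4 the 20 genes with the highest CV shared only Eps8l1, Erdr1 and Mid1 with the first list. The other members named next were chosen after their values were seen. Hbb-bs, Neat1 (a nuclear noncoding RNA), Mt2 (a metallothionein) and Hist1h1c (a linker histone) had their highest value in replicate 1. Arc, Egr4 and Sik1, induced by activity, had theirs in replicate 2, where Arc reached 251 CPM against 162 to 179 in replicates 1 and 3. Replicate 4, with 236 CPM of Arc, lay close to replicate 2.

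At the other end, Ank, a transporter that exports phosphate compounds, had 211.5, 211.0, 211.0 and 211.1 CPM, a CV of 0.10%. Counting error alone would give 1.34% at that depth, so a spread this narrow is below what sampling gives on average, and no spread beyond counting was measurable for it. Actr10, Necap1, Mrps17, Ilf2, Rufy3, 9130011E15Rik, Stim2, Klhl17 and St5 were the next steadiest, at 0.13% to 0.54%. All 10 were below their own counting error, as were 10.6% of the 9962 genes at 10 CPM or more.

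Genes often used to normalize other assays were not equally steady. Of 20 such genes, 8 had a CV under 5%, against 3063 of all 9962 genes at 10 CPM or more. Replicate 4 was the highest library in 16 of the 20. In the abundance groups from 10 CPM up it was the highest for 42.2% to 45.9% of genes. Without replicate 4, 18 of the 20 were under 5%, against 6279 of the 9962 genes. The median over the 20 fell from 6.18% to 3.25%, and that over the 9962 genes from 6.83% to 3.97%. Sdha, a subunit of respiratory complex II, had 405, 387, 396 and 407 CPM, a CV of 2.31%. Ywhaz followed at 2.61% and Canx at 2.86%. These 3 genes had no library far from the rest. B2m, Hsp90ab1, Tbp, Actb and Eif4a2 lay between 4.26% and 4.68%. Gapdh had 1489, 1383, 1396 and 1675 CPM, a CV of 9.07%, with replicate 4 above the rest, or 4.07% without it. Atp5b, Cyc1, Pgk1, Gusb, Hprt and Ppia lay between 5.46% and 9.34%. Rpl13a and Rplp0 reached 11.7% and 12.5%, each highest in replicate 4, and 4.11% and 4.99% without it. Tfrc, the transferrin receptor, had the highest CV, 14.3%, with 127, 110, 114 and 88.9 CPM and replicate 4 lowest, or 7.41% without it.

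Promoter sequence was set beside abundance for RefSeq genes of GRCm38.p6, in windows from 250 bases before to 50 bases after each start. CpG dinucleotides are common in promoters of broadly expressed genes, and the TATA box is a core element bound by the TATA-binding protein. The median number of CpG in the 300 bases was 2 for genes with no count, 6 for those under 1 CPM, 15 from 1 to 10 CPM, 21 from 10 to 100 CPM, and 22.5 both from 100 to 1000 CPM and at 1000 CPM or more. More abundant genes thus had more CpG in their windows up to about 10 CPM, with little further change above it. The letters TATAAA on either strand occurred in 25.9%, 13.5%, 8.74%, 6.48% and 6.47% of windows from no count up to 1000 CPM, and in 10 of 80 windows (12.5%) at 1000 CPM or more, against 13.6% of all 32851 windows. Within 45 to 16 bases before the start these letters occurred on the sense strand in 5.42% of windows with no count, 3.42% of those under 1 CPM, 1.77% from 1 to 10 CPM, 0.88% from 10 to 100 CPM and 0.93% from 100 to 1000 CPM. At 1000 CPM or more they occurred in 2 of 80 windows (2.5%), against 2.14% of all windows. RefSeq starts can lie inside a gene: 45 of the 80 windows at 1000 CPM or more had their start within 500 bases of the first base of the GENCODE gene. Over windows within that limit the median number of CpG ran from 2 for genes with no count to 23 at 1000 CPM or more. Several windows can belong to 1 gene, so these shares describe windows and not independent genes. The 32851 windows also include 10397 whose gene name is not among the counted rows. Of these, 16.8% held TATAAA on either strand and 1.46% held it 45 to 16 bases before the start. The shares over all windows are therefore not those of the counted genes alone.

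The 250 bases before a RefSeq start of 3 genes above 1000 CPM are shown for their different content, and they were chosen after it was seen. Each start lies within 82 bases of the first base of the GENCODE gene. Eef1a2 had the fewest CpG among the genes above 1000 CPM with a single RefSeq window near that base. Capitals mark TATAAA on either strand and TGACGTCA (the same on both strands) in Meg3, and CG in Calm3 and Eef1a2 (5′ to 3′ on the gene's strand, RefSeq, GRCm38.p6).
Meg3, chr12:109540746-109540995, plus strand: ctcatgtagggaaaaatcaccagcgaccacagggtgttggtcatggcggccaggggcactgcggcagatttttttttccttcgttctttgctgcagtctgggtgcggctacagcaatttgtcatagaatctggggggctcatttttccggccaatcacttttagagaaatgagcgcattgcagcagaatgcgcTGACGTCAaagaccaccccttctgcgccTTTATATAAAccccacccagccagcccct
Calm3, chr7:16924033-16924282, minus strand: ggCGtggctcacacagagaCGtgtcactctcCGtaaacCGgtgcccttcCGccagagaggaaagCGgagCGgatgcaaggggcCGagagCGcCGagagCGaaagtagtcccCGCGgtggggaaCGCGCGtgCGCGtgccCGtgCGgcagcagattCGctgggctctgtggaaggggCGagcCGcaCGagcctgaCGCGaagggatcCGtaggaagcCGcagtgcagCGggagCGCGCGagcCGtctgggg
Eef1a2, chr2:181157016-181157265, minus strand: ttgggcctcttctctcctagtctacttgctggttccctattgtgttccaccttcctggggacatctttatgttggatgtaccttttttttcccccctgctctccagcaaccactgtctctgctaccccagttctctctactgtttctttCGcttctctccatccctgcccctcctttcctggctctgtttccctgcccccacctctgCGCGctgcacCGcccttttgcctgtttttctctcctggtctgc
In Meg3, TATAAA begins 25 bases before the start and TGACGTCA, the site known to be bound by CREB, 57 bases before it. TGACGTCA was in 1.79% of all windows of 300 bases, which include those whose gene name is not among the counted rows. Meg3 has 2 RefSeq windows, of which the one with TATAAA is shown. The Calm3 stretch holds 33 CG and no TATAAA, and the Eef1a2 stretch holds 4 CG and no TATAAA. Which starts were used in these libraries was not measured. A match in these letters does not show that a factor is bound there, and these libraries hold no measurement of binding.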

How the data were processed

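RNA of mouse hippocampus was measured in 4 WT libraries. The submitters' processing notes name the build GRCm38 and the tools featureCounts, STAR 2.6.1d and edgeR 3.11, with no order. Not given in the sources used here are the annotation release, the strand setting and the rule for reads that match several places. The authors deposited whole-number counts per gene name, unscaled, and rows with the same name were kept apart. The authors' table of their comparison between genotypes was not used here.

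CPM is the count divided by the column total, times 1000000. Of the genes at 1 CPM or more, 13972 (98.7%) were matched by name or synonym to GENCODE M21, and TPM was computed from exon union lengths of 200 bases or more for 13943 of them. The 22 names turned into dates (0.306% of counts) are not named, and 185 genes (0.640% of counts) had no match. SDs are over 4 libraries. No test between groups was run, and a chi-square of counts and Dixon's limit served only to compare single libraries. The depth (23694841 counts or more) sets the counting error. The edgeR 4.0.16 dispersions and TMM factors and the DESeq2 1.42.0 size factors were computed in R 4.3.3, and the dispersion script was checked on simulated data. The rest used Python 3.11.15.

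Genes were named by a rule: the 25 highest by CPM and by TPM, the 20 highest and 10 lowest CVs at 10 CPM or more, the 10 highest noncoding genes, all reference genes and family members, and up to 5 members of each other list with those under 1 CPM. Members and lists were chosen with earlier results of these data known, so they support nothing by themselves. Other scalings, filters, lengths, a denominator without mitochondrially encoded genes and each library left out were tried as alternatives. Some genes that the rule names are not reported here, though counts and sums include them. The cutoff of 200 bases, the marker sums and length trend without single libraries and the limit of 500 bases from a gene's start were chosen after seeing the data.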

Additional observations from a re-analysis of the deposited data

Results flagged for a closer look

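Of 128 measures over the 4 WT libraries (shares of gene classes and gene types, marker sums, the 25 genes with the most counts, reference genes and library measures), 20 had 1 library far from the other 3 by Dixon's 95% limit for the gap to the nearest library. Chance flags about 1 in 20 groups. The outlying library was replicate 4 in 16 of them, replicate 1 in 3, replicate 3 in 1 and replicate 2 in 0.

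In replicate 4 the share of counts was high for neuropeptides and granins (0.296%), ubiquitin genes (0.0931%), calmodulins (0.608%), elongation factor 1 alpha (0.349%), stathmins (0.106%), cytosolic ribosomal protein genes (1.20%), nuclear oxidative phosphorylation genes (0.972%), proteasome subunits (0.304%) and mitochondrial ribosomal protein genes (0.202%). It was low for postsynaptic receptors and scaffolds (1.88%), microtubule-associated proteins (0.520%) and potassium channels (0.618%). Microglia markers summed to 839 TPM in replicate 4 against 796 to 801 TPM in the others. Cplx2 was high at 2197 CPM and Atp1b1 low at 1870 CPM. The median size of the log2 deviation from the mean of the other 3 libraries was 0.14 in replicate 4 and 0.07 to 0.08 in the rest, for which that mean includes replicate 4.

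Replicate 1 had the highest sums of oligodendrocyte markers (3511 TPM) and ependymal markers (46.7 TPM), and the lowest of dentate granule cell markers (722 TPM against 745 to 750 TPM). Replicate 3 had the highest sum of choroid plexus markers (28.4 TPM), mostly through Ttr. The median log2 deviation of replicate 4 fell with gene length, and replicate 1 was also the highest for blood markers, at 327 TPM. The part of these in the values above was not tested.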

How the results depend on the processing

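The number of genes at 1 CPM or more and the number that hold 50% of counts stayed within 1.5 times the main value under every alternative run, at 11490 to 15050 and 739 to 1096. Shares moved by more than their SD on the per-length scale: the first 10 genes held 10.9%, the first 100 held 24.8%, mitochondrially encoded genes 10.2%, ribosomal protein genes 2.57%, oxidative phosphorylation genes 2.00% and protein-coding genes 96.8%. With mitochondrially encoded genes out of the denominator, the first 10 held 2.999%, the first 100 held 14.9% and protein-coding genes 98.2%. The median CV was 15.9% without a filter. Leaving out each library in turn gave a median CV of 5.17% to 8.60%, the lowest without replicate 4. Leaving out 1 of 4 libraries cannot move a mean by more than its SD, so this rule could not judge shares or levels there. The first 25 genes by TPM shared 23 with the list by longest transcript and 24 with the list that includes genes under 200 bases. Of the 45 levels checked (the 25 leading genes and the reference genes), 10 moved by more than their SD without mitochondrially encoded genes in the denominator. With TMM or DESeq2 scaling, or with rows of the same name summed, 0 did. No paired analysis was possible because the results describe 1 group and come from no test. Depth limits genes between 1 and 10 CPM, where counting error alone gives a median CV of 10.2%. The 4 libraries cannot separate animal from library effects, since the labels do not tie them to animals.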
